A study of Mus musculus and Homo sapiens with 4 samples.

Results

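Cyclic nucleotide phosphodiesterases are enzymes that hydrolyse cyclic AMP, cyclic GMP or both, and so set how long these second messengers last in a cell. The 10 genes described here, PDE1B, PDE2A, PDE3A, PDE4A, PDE4B, PDE4D, PDE5A, PDE7A, PDE7B and PDE8A, were taken by symbol on a mouse and a human array. They had 31 probe sets among 45037 on the mouse array and 41 among 54613 on the human array, control probe sets left out of both totals. As genes they were 10 of 18193 named on the mouse array and 10 of 19773 named on the human array. The genes were selected on their family and with the knock-down minus control differences of these arrays already known. The differences below therefore describe the genes and are no test of the family.

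Expression was measured on 4 Affymetrix arrays, each of RNA from 1 stably infected cell line. The LM8 line is from a mouse osteosarcoma and the A375M line from a human melanoma. LM8/control and A375M/control carried the pSIREN-RetroQ control retrovirus, and the knock-down lines carried the same vector with a short hairpin against mouse or human Merm1/Wbscr22. This gene, now Bud23 in mouse and BUD23 in human, codes for an enzyme that methylates 18S ribosomal RNA. The labels give 1 hairpin vector for each species, and do not say whether a line was a clone or a pool of infected cells. Each group held 1 array, so differences have no replicate check, error or p-value. In RNA from a whole culture, more transcript per cell and more cells with the transcript cannot be told apart.

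Both messengers are made by cyclases. Adenylyl cyclases are switched by G protein-coupled receptors and guanylyl cyclases by nitric oxide or natriuretic peptides. Cyclic AMP acts through protein kinase A, EPAC exchange factors and the transcription factor CREB, and cyclic GMP acts largely through protein kinase G. Families 4, 7 and 8 of the phosphodiesterases degrade cyclic AMP, family 5 degrades cyclic GMP, and families 1, 2 and 3 degrade both. Parathyroid hormone raises cyclic AMP in osteoblasts through its receptor PTH1R, and melanocortin does so in melanocytes through MC1R.

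The promoters of 4 of the 5 mouse genes that were higher together in LM8 are shown first. RefSeq promoter windows on build GRCm38.p6, from 250 bases before to 50 bases after a gene's start, were found for 8 of the 10 genes, 19 windows in all. Windows were searched on both strands for the full cyclic AMP response element TGACGTCA, for its shorter form TGACG, and for the GC box GGGCGG. The shorter form lies within the full one. Capitals mark TGACG or GGGCGG on either strand, and each sequence runs 5′ to 3′ on the strand of its gene. The Pde4b window is the only 1 of that gene's 4 that holds either motif.
Pde7b promoter, chr10:20548279-20548578, minus strand: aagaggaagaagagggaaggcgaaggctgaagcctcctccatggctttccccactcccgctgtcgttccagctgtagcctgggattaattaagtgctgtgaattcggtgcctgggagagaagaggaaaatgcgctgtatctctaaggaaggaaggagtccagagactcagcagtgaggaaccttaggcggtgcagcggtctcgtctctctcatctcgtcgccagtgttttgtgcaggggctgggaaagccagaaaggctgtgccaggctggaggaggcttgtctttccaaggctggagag
Pde4b promoter, chr4:102421305-102421604, plus strand: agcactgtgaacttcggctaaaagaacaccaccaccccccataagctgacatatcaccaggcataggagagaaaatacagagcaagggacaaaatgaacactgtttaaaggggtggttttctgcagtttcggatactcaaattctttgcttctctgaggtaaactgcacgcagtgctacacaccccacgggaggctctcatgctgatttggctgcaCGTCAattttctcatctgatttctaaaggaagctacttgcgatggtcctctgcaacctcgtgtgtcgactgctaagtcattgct
Pde8a promoter, chr7:81213015-81213314, plus strand: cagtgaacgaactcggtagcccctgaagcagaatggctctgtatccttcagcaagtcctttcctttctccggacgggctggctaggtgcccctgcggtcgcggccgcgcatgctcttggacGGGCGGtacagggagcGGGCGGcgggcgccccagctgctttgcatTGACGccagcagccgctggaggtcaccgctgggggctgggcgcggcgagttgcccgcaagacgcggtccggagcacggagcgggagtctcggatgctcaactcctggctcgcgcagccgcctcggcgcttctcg
Pde5a promoter, chr3:122728908-122729207, plus strand: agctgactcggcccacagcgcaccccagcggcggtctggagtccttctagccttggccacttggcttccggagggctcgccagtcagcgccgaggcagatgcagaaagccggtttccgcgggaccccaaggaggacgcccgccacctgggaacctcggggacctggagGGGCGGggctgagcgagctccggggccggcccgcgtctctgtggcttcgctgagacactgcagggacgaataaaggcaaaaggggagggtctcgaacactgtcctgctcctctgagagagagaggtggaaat
The Pde7b window held neither motif. The Pde4b window held TGACG on the opposite strand, starting 34 bases before the gene's start, and the Pde8a window held it 84 bases before the start. Pde8a also had GC boxes at 129 and 113 bases before its start, and Pde5a had its GC box at 82. Over the 19 windows, TGACGTCA was in 0, TGACG in 4 and GGGCGG in 6. Of all 32851 mouse promoter windows 1.79%, 20.8% and 35.7% held them. The match of letters is a description of these windows. Pde4d, whose single window also held neither motif, had the lowest GC content of the 19 at 39.7%.

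The target gene was lower in each knock-down array, where Bud23 differed by -2.13 in LM8 and the brighter BUD23 probe set by -2.32 in A375M. All values are log2 RMA expression values, and every difference is knock-down minus control. The probe set with the highest mean stood for its gene, and a gene counted as kept when this probe set exceeded the median of at least 1 array. Differences between kept probe sets of 1 gene had a median SD of 0.12 in LM8 and 0.071 in A375M, a technical gauge that leaves out the spread between cultures. All 7 osteoblast markers measured on the LM8 arrays and all 7 melanocyte markers measured on the A375M arrays were kept. In LM8 the kept members of the other marker lists were 5 of 7 for leukocytes, 2 of 6 for endothelium, 1 of 6 for epithelium, 3 of 8 for melanocytes and 8 of 9 for smooth muscle and fibroblasts. In A375M they were 4 of 7 for leukocytes, 3 of 6 for endothelium, 2 of 6 for epithelium, 6 of 9 for osteoblasts and 7 of 9 for smooth muscle and fibroblasts. In A375M the values of 45.4% of all probe sets were identical in both arrays. Genes whose kept probe sets were all identical there, such as NR4A1, entered the A375M gauge with an SD of 0 and so lowered it.

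In LM8, knock-down exceeded control by 1.5-fold or more in 5 of the 10 phosphodiesterase genes, and control exceeded knock-down by as much in 0. They were the cyclic AMP-degrading Pde7b, Pde4b, Pde8a and Pde4d and the cyclic GMP-degrading Pde5a. Pde7b and Pde4b passed 2-fold. With the probe sets of a gene averaged, 7 of the 10 genes were kept, Pde7b and Pde4b not among them, and 1 passed 1.5-fold. Under a 70th percentile filter 4 were kept and 2 passed. With 32 added to the linear value 4 passed, Pde5a being at 0.50. Of 11646 kept genes 1.16% were higher by 1.5-fold or more, 1.31% lower by as much, and 0.155% higher by 2-fold or more. Since the members were selected on this contrast, nothing is read from the comparison of these shares. In A375M only PDE7B passed 1.5-fold, and 0 of the 10 passed 2-fold.

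**Figure D1:**
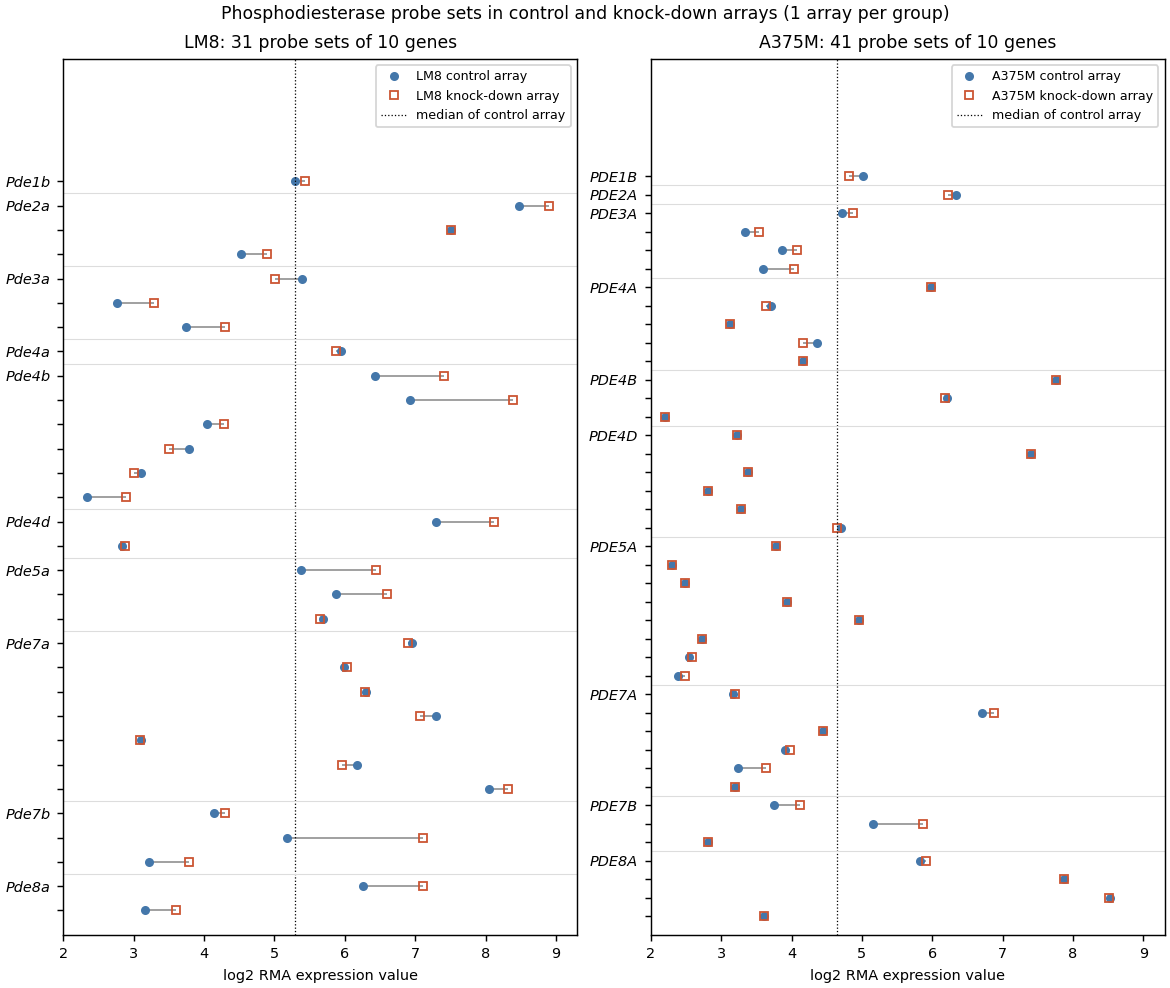
Log2 RMA values (horizontal axes) of every probe set of the 10 genes, LM8 on the left and A375M on the right. Circles are the control array, squares the knock-down array of the same line, grey lines join them, and the dotted line is the median of the control array. In LM8 the brightest probe set of each of Pde4b, Pde4d, Pde5a, Pde7b and Pde8a lies further right in the knock-down array. In A375M 20 of 41 pairs coincide.

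Pde7b encodes a cyclic AMP-specific enzyme. Its brightest probe set read 5.18 in LM8 control and 7.12 in LM8 knock-down cells, which differ by 1.94. The control value lay just below the median of 5.29 and the gene was kept through the knock-down array alone, so the size of the difference and its place past 2-fold are imprecise. The other Pde7b probe sets lay below the median in both arrays. They read 4.15 (control) and 4.29 (knock-down), a difference of 0.15, and 3.22 and 3.79, a difference of 0.57. All 3 probe sets were higher in the knock-down array, and the mean of their differences was 0.88.

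Pde4b encodes an enzyme that rolipram, an anti-inflammatory inhibitor of family 4, blocks. Its brightest probe set read 6.93 in control and 8.39 in knock-down cells, a difference of 1.46 or 2.74-fold. Another bright probe set read 6.43 and 7.42, a difference of 0.99. Both stood well above the array median. The 4 other Pde4b probe sets lay below the median in both arrays and differed by -0.28, -0.092, 0.24 and 0.55. The signal of this gene was therefore uneven between probe sets, and the mean over all 6 was 0.48. The array has probes near the 3′ end, so its values do not tell the 4 annotated starts apart.

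Pde8a, whose product binds cyclic AMP with high affinity, read 6.26 in control and 7.11 in knock-down cells, a difference of 0.84 or 1.79-fold. Its dim probe set read 3.16 and 3.61, a difference of 0.45. Both probe sets of this gene were higher. Pde4d, another rolipram-sensitive family 4 gene, read 7.30 and 8.12, a difference of 0.82 or 1.76-fold. Its other probe set, far below the median, read 2.83 and 2.88. The call for Pde4d therefore rests on 1 probe set, and the mean over both was 0.43.

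Pde5a encodes the cyclic GMP-specific enzyme that sildenafil inhibits. The probe set that stood for it read 5.88 in control and 6.60 in knock-down cells, a difference of 0.72 or 1.65-fold. That probe set carries the _x_at mark of probes shared between transcripts. An unmarked probe set read 5.38 and 6.44, a difference of 1.06, and the third read 5.69 and 5.64. The 3 probe sets of Pde5a thus had an SD of 0.57, above the 90th percentile of 0.28 over genes with several kept probe sets. With marked probe sets left out, Pde5a stood at 1.06 and joined Pde7b and Pde4b past 2-fold. The control value of 5.38 on that unmarked probe set lay close to the array median of 5.29, so this place past 2-fold is imprecise.

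**Figure D2:**
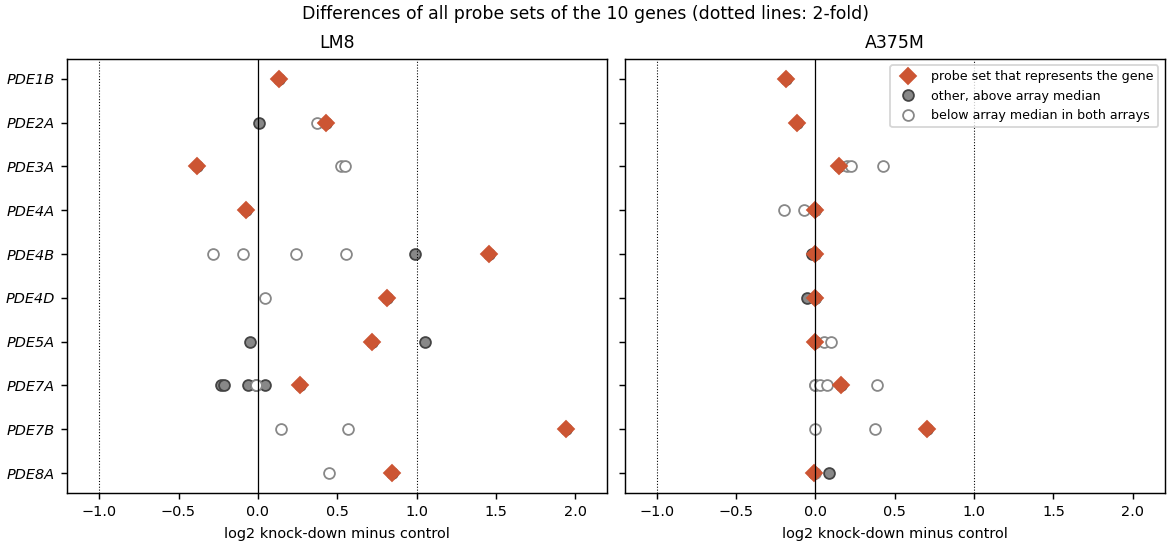
Difference between knock-down and control array (log2, horizontal axes) for each probe set of the 10 genes in LM8 and A375M. Diamonds are the probe sets that represent the genes, filled circles other kept probe sets, open circles probe sets below the median in both arrays, and dotted lines 2-fold. In LM8 the diamonds run from -0.38 to 1.94, and in A375M from -0.19 to 0.71.

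The remaining members differed less in LM8. Pde2a, whose enzyme is stimulated by cyclic GMP, read 8.47 and 8.90 on its brightest probe set, a difference of 0.43. Another bright Pde2a probe set read 7.51 in both arrays, and a dim one differed by 0.37. Both bright Pde2a probe sets carry marks of shared probes. Pde7a, the closest relative of Pde7b, had 7 probe sets between -0.23 and 0.26, of which 5 were lower. Its probe set with the highest mean, marked as shared, read 8.05 and 8.32, and without marked probe sets the gene differed by -0.23. No direction can be given for Pde7a.

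Pde1b, a calmodulin-activated enzyme gene with 1 probe set at the array median, read 5.30 and 5.43. Pde4a, also with 1 probe set, read 5.95 and 5.87, a difference of -0.076 and within the spread between probe sets. Pde3a, whose enzyme is inhibited by cyclic GMP, read 5.40 and 5.01 on its brightest probe set, a difference of -0.38. The knock-down value lay below the array median of 5.28, and the gene was kept through the control array alone. Its dim probe sets went the other way, by 0.53 and 0.55, and the mean of all 3 differences was 0.23. Within family 4, Pde4b and Pde4d were thus higher and Pde4a was not, and within family 7 Pde7b was higher on every probe set while Pde7a was mixed. Over the 10 genes 8 were higher by any amount, Pde7a among them, beside 53.8% of kept genes. The median difference of the 10 was 0.57, beside 0.015 over all kept genes. Without marked probe sets 6 of 9 kept members were higher.

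In A375M the phosphodiesterase genes did not share a direction. Of the 10 genes 3 were higher, 3 lower and 4 identical, and their median was 0, as was the median of all 13244 kept genes. Among kept genes 29.0% were higher by any amount and 30.8% identical. The shares higher by 1.5-fold or more, lower by 1.5-fold or more and higher by 2-fold or more were 0.378%, 0.37% and 0.0831%. After repeated quantile normalization 6 of the 10 were higher and 2 lower, after removal of a loess curve 7 and 3, and with arrays centred on their medians 3 and 7. The signs of the near-zero genes therefore depend on the scaling.

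PDE7B was the exception. Its brightest probe set read 5.16 in control and 5.87 in knock-down cells, a difference of 0.71 or 1.63-fold, and ranked 33 among 13244 kept genes. The control value lay above the array median of 4.64. A dimmer probe set read 3.75 and 4.12, a difference of 0.38, and the third read 2.82 in both arrays, a value that 755 other probe sets of the control array shared exactly. The values of the first and second PDE7B probe sets were shared with 0 others. PDE7B was below 1.5-fold with 32 added to the linear value, at 0.41, and it was not kept under a 70th percentile filter or when its probe sets were averaged.

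**Figure D3:**
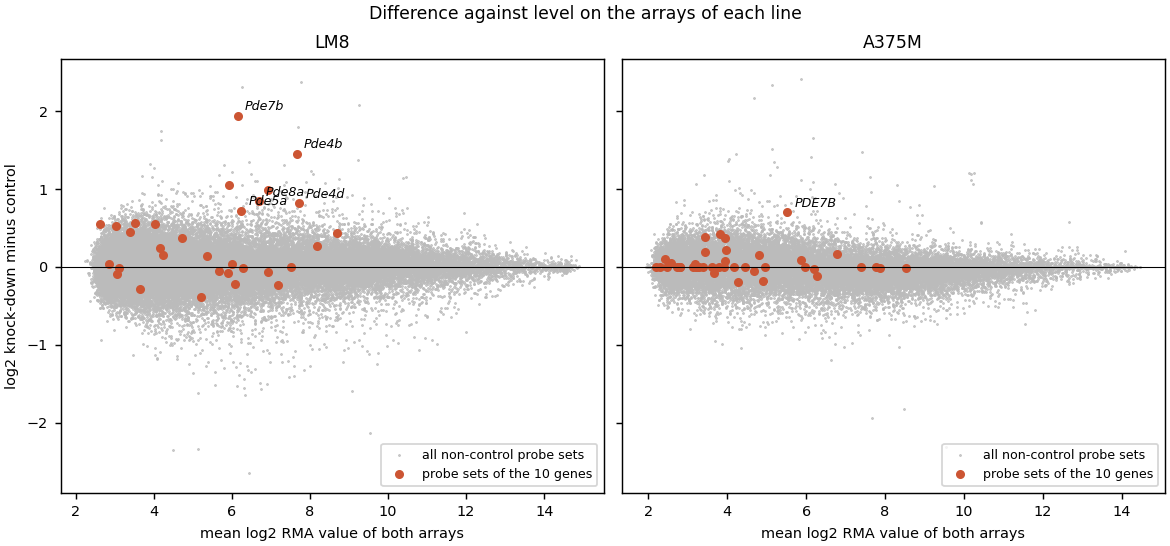
Difference between knock-down and control array (log2, vertical axes) against the mean log2 RMA value of both arrays for all non-control probe sets (grey) and those of the 10 genes (red) in LM8 and A375M. Names mark members whose representative probe set was at least 1.5-fold higher. Pde7b and Pde4b lie near the upper edge of the LM8 cloud, and PDE7B at 0.71 is the single named point in A375M.

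The other cyclic AMP-specific genes included exact ties in A375M. The step that made values identical in both arrays is unknown, so a difference of 0 is not read as equal expression. PDE4B read 7.76 in both arrays on its brightest probe set and 6.21 and 6.18 on the next. PDE4D read 7.40 in both arrays, and 5 of its 6 probe sets had identical values. PDE8A read 8.52 and 8.51, with differences of -0.0090 and 0.088 on its other kept probe sets. PDE4A read 5.98 in both arrays. These control values of PDE4A, PDE4B and PDE4D recurred exactly in 76, 17 and 16 other probe sets. The brightest probe sets of these genes stood above the array median. PDE7A differed by 0.16 on its kept probe set, from 6.71 to 6.87, with the other 5 between 0 and 0.39.

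PDE5A lay at 4.96 in both arrays on the 1 kept probe set of 8, and 6 of the 8 were identical. Its other 7 probe sets were below the array median. PDE3A was higher on all 4 probe sets, by 0.15 to 0.43, of which only that at 0.15 was kept. The knock-down value of the kept one recurred exactly in 128 other probe sets. Each dim one also had a control or knock-down value that recurred, in 633, 505 and 475 others, so the shared direction is uncertain. PDE1B read 5.01 and 4.82 and PDE2A read 6.33 and 6.22, each on 1 probe set. The PDE1B control value recurred in 225 others and the PDE2A knock-down value in 65. In all 20 of the 41 human member probe sets had identical values. The control value of 28 of the 41 recurred exactly in another probe set, 68.3% beside 67.4% of all probe sets. The knock-down value of 33 of the 41 did so. Many human values were thus shared between probe sets.

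Across the lines, PDE7B was the single member at least 1.5-fold higher in both, and 0 members were lower in both. The probe set that stood for PDE7A was also higher in both, but its LM8 probe sets were mixed. PDE1B, PDE2A and PDE8A were higher in LM8 and lower in A375M, the last by -0.012. PDE3A was lower in LM8, on its brightest probe set alone, and higher in A375M. The arrays are of different design and each line has its own controls, so the lines were set side by side and the difference between them was not tested.

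**Figure D4:**
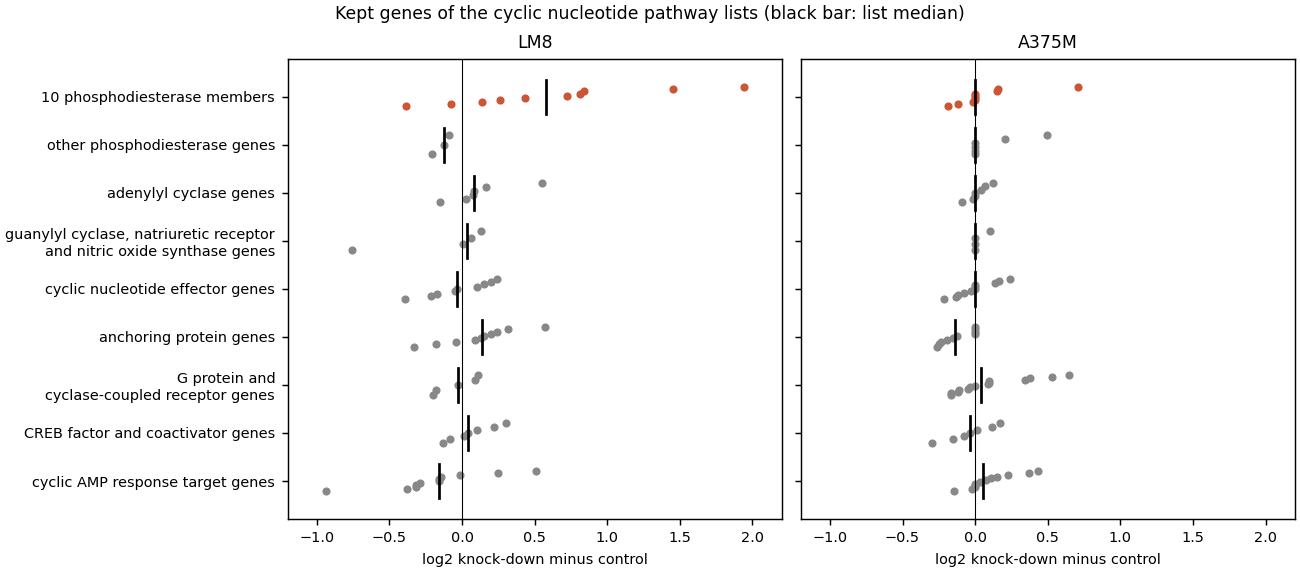
Difference between knock-down and control array (log2, horizontal axes) of each kept gene of the 10 members (red) and of 8 lists of the cyclic nucleotide pathway (grey) in LM8 and A375M, with black bars at list medians. In LM8 the member median is 0.57, and the other list medians lie between -0.16 and 0.14.

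The other genes of the pathway were taken from 8 lists set by function. For the counts below, 53.8% of all kept genes were higher by any amount in LM8. In A375M 29.0% of all kept genes were higher and 30.8% identical. Of 13 further phosphodiesterase genes measured in LM8 only 3 were kept, all lower by small amounts. Without the filter the median difference of the 13 was 0.084, so no direction is given for the list. The 3 kept were Pde6h (-0.21), Pde6g (-0.12) and Pde6d (-0.088), and Pde6h and Pde6g encode inhibitory subunits of the photoreceptor enzyme. In A375M 6 of 12 were kept, 2 higher and 4 identical, with PDE6G at 0.50 and PDE3B, a cyclic GMP-inhibited enzyme gene of fat and liver, at 0.20. In both lines 0 of these kept genes passed 1.5-fold.

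On the side of synthesis, 5 of 6 kept adenylyl cyclase genes were higher and 1 lower in LM8, beside 53.8% of all kept genes higher. Their median was 0.081 and 0 passed 1.5-fold. Adcy4 read 5.55 and 6.10, a difference of 0.55, Adcy9 differed by 0.16 with kept probe sets of both signs, and Adcy7 by -0.15. Among 4 kept genes of the guanylyl cyclase list, Gucy1a1 was the 1 past 1.5-fold, and it was lower. It encodes a subunit of the nitric oxide-stimulated cyclase that makes cyclic GMP, and it read 9.46 in control and 8.70 in knock-down cells, a difference of -0.76. Its 3 kept probe sets lay between -0.86 and -0.76, so all were lower. Nos3, a nitric oxide synthase gene, and the natriuretic peptide receptor gene Npr2 differed by 0.13 and 0.060. In LM8 Pde5a, a gene for cyclic GMP breakdown, was higher on 2 of its 3 probe sets, and this cyclase gene was lower. Pde2a, Pde1b and Pde3a, of families that degrade both messengers, differed by 0.43, 0.13 and -0.38. Cyclic GMP itself was not measured.

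In A375M the same lists were near 0. Of 7 kept adenylyl cyclase genes 3 were higher, 2 lower and 2 identical, with ADCY5 at 0.12, ADCY9 at -0.092 and ADCY7 at 0.065. Of 4 kept genes of the guanylyl cyclase list 3 were identical and NOS3 differed by 0.10.

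Among effectors, which include the subunits of protein kinase A, 4 of 9 kept genes were higher and 5 lower in LM8, with 0 past 1.5-fold. Prkar1a, the type I regulatory subunit gene, read 12.33 and 11.94, a difference of -0.40, Prkar1b differed by -0.21 and Prkar2b by 0.24. In A375M 3 of 11 were higher, 5 lower and 3 identical, with PRKG1, which encodes protein kinase G, at 0.24, PKIG, a kinase inhibitor gene, at -0.21 and PRKAR2A at 0.16, though its kept probe sets ran from -0.086 to 0.16.

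The anchoring proteins hold protein kinase A and phosphodiesterases at sites in the cell. In LM8 7 of 10 kept genes of this list were higher and 3 lower, with a median of 0.14, beside 53.8% of all kept genes higher. Akap7 read 7.18 and 7.75, a difference of 0.57, and Akap13 differed by 0.32. Pde4dip, whose product myomegalin binds PDE4D, differed by -0.33, with 3 kept probe sets between -0.53 and -0.28. In A375M 6 of 10 were lower, 0 higher and 4 identical, with a median of -0.14. Over all kept A375M genes 29.0% were higher and 30.8% identical. AKAP12 differed by -0.26, AKAP9 by -0.25 and AKAP6 by -0.24. The A375M median was -0.019 without marked probe sets, -0.066 when probe sets were averaged and 0 without the filter.

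Of the receptor and G protein list 5 of 14 measured genes were kept in LM8, 2 higher and 3 lower. Vipr1, a receptor gene for vasoactive intestinal peptide, differed by -0.20, Pth1r by -0.18 and Gnas, the gene of the stimulatory G protein, by 0.11. In A375M 7 of 14 kept genes were higher, 6 lower and 1 identical. GNAL, a stimulatory G protein gene, read 5.45 and 6.10, a difference of 0.65 that passed 1.5-fold. PTH1R differed by 0.53 from a control value below the array median, and VIPR1 by 0.38. Each rested on 1 kept probe set. The GNAL control value recurred exactly in a PDE1C probe set, and the PTH1R knock-down value in the kept PDE3A probe set.

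On the probe sets that stood for them, genes of CREB and its coactivators reached 0.31 in LM8 and 0.29 in size in A375M. Other kept LM8 probe sets went further, to -0.65 for Creb1 and 0.50 for Crebbp. Crtc3, Crtc1 and Crtc2 differed by 0.31, 0.22 and -0.13 in LM8, with Crtc1 and Crtc2 mixed between probe sets. EP300, CREM and CREB1 differed by -0.29, 0.17 and -0.15 in A375M.

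Of the genes whose transcription cyclic AMP can raise, 9 of 11 kept genes were lower and 2 higher in LM8, with a median of -0.16. Over all kept genes in LM8 53.8% were higher by any amount. Nr4a2 and Nr4a3, counted as lower, had kept probe sets of both signs. Fos, an immediate early gene that growth factors also induce, read 7.74 and 6.81, a difference of -0.93 or 1.91-fold lower. Atf3 differed by -0.38. Rgs2, which encodes a brake on G protein signalling, read 7.75 and 8.26, a difference of 0.51, with 3 kept probe sets between 0.43 and 0.87. Only Fos passed 1.5-fold. In A375M 7 of 12 were higher, 2 lower and 3 identical, with a median of 0.056, FOS at 0.43, PPARGC1A at 0.37 and RGS2 at 0.23.

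Some genes listed as markers of other cell types also differed in LM8. Of the 8 kept smooth muscle and fibroblast markers 6 were higher and 2 lower, beside 53.8% of all kept genes higher. Their median was 0.14. The summed level was 14.01 in the control and 14.03 in the knock-down array on the log2 scale. Of these markers only the collagen gene Col3a1 passed 1.5-fold, at 2.37. The 3 kept melanocyte markers, Mitf, Sox10 and S100b, were higher in LM8, with S100b past 1.5-fold at 0.73 and Sox10 at 0.046. Their summed level was 9.23 and 9.71. The other markers of that list, Pmel, Tyr, Tyrp1, Dct and Mlana, lay below the filter in LM8. Of the 7 osteoblast markers 4 were higher and 3 lower, with a summed level of 15.17 and 15.27. In A375M 5 of 7 melanocyte markers were higher and 1 lower, beside 29.0% of all kept genes higher. Their median was 0.14 and their summed level 12.68 and 12.76. Whether cells of other types were present was not tested, nor was their part in the phosphodiesterase differences.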

How the data were processed

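RNA of 4 stably infected cell lines, LM8 and A375M with a control or a Merm1 hairpin vector, was measured on Affymetrix arrays, 1 per group, with groups taken from the sample titles. The authors deposited log2 values per probe set made, per the submitters' processing notes, with RMA. RMA equalises array distributions, so a shift of all genes would not be seen. The version and which arrays were processed together are not given in the sources used here. Gene names came from the platform annotation, with mouse symbols updated through gene IDs of a RefSeq table (GRCm38.p6). In mouse 34945, 932 and 9160 non-control probe sets had 1, several or no symbol, and in human 41091, 1801 and 11721. Only probe sets with 1 symbol named a gene.

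A gene was kept when its brightest probe set exceeded the 50th percentile, taken without control probe sets, in 1 or both arrays. The threshold was 2-fold, or alternatively 1.5-fold or 3-fold. Members and lists were chosen with earlier results of these data known. All members were named, with up to 3 kept genes of each other list and line having the largest differences. Col3a1, S100b and the genes under other observations were named after their values were seen. Alternatives were no filter or the 70th percentile, median centring, repeated quantile normalization, loess removal (span 0.4), probe set means, exclusion of _x_at and _s_at probe sets, and 32 added before the log2. The counting script was tested on simulated data. Python 3.11.15 and statsmodels 0.14.6 were used. The number of arrays limits precision, and no test was possible.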

Additional observations from a re-analysis of the deposited data

Results flagged for a closer look

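Among the genes named by the rule in at least 1 line, some differed in opposite directions in the lines by more than the median spread between probe sets of a gene. The difference between lines was not tested, and each direction rests on 1 array pair. Among the phosphodiesterases these were PDE1B (0.13 in LM8, -0.19 in A375M), PDE2A (0.43 and -0.12), PDE3A (-0.38 and 0.15) and PDE6G (-0.12 and 0.50). In the rest of the pathway they were ADCY9 (0.16 and -0.092), PRKAR1A (-0.40 and 0.14), PRKAR2B (0.24 and -0.13), AKAP7 (0.57 and -0.13), AKAP9 (0.15 and -0.25), PTH1R (-0.18 and 0.53), VIPR1 (-0.20 and 0.38), CRTC2 (-0.13 and 0.11) and FOS (-0.93 and 0.43). Kept probe sets had both signs for ADCY9, AKAP9 and CRTC2 in LM8 and for PRKAR1A in A375M. The direction there is that of the brightest probe set. In A375M the median spread was 0.071, lowered by genes whose kept probe sets were all identical, and the 90th percentile was 0.20. PDE1B, PDE2A, PDE3A, ADCY9, PRKAR1A, PRKAR2B, AKAP7 and CRTC2 differed by less than that percentile in A375M. PDE3A and VIPR1 in LM8 were kept through the control array alone, and PTH1R in A375M through the knock-down array alone. The dim LM8 probe sets of PDE3A went the other way. In A375M the PDE1B control value and the PDE2A and PDE3A knock-down values recurred exactly in 225, 65 and 128 other probe sets. The PTH1R knock-down value there was the same as that of PDE3A. The step that made such values is unknown, so these A375M directions are uncertain.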

How the results depend on the processing

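The count of phosphodiesterase genes at least 2-fold different in LM8 was 2. It was 1 under a 70th percentile filter, where 4 of the 10 genes were kept, 0 when probe sets were averaged, where 7 were kept, 3 without _x_at and _s_at probe sets, 5 at 1.5-fold and 1 at 3-fold. In A375M it was 0, and 1 at 1.5-fold. The count of genes higher by any amount in LM8 was 8. It was 4 of 4 kept with the stricter filter, 5 of 7 with probe set means and 6 of 9 without _x_at and _s_at probe sets. In A375M this count was 3. It was 1 with the stricter filter, 6 after repeated quantile normalization, 7 after loess removal and 1 with probe set means. Without _x_at and _s_at probe sets it was 2 of 8 kept. Of 136 values of member differences under the alternatives 121 moved by less than the spread between probe sets, 15 by more, and 0 of those past 1.5-fold changed sign. Over the settings in which a gene was kept, Pde7b ranged from 1.32 to 1.95, Pde4b from 1.25 to 1.46, Pde8a from 0.64 to 0.86, Pde4d from 0.43 to 0.82, Pde5a from 0.50 to 1.06 and PDE7B from 0.41 to 0.71. These ranges leave out settings in which a gene was not kept. Pde7b and Pde4b were not kept when probe sets were averaged, at mean differences of 0.88 and 0.48. Pde7b, Pde8a and Pde5a were not kept under the 70th percentile filter. No paired analysis was possible because each group held 1 array and the labels carry no replicate numbers. Values near or below the array median carry little signal over background.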

Other observations

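Several phosphodiesterase genes were measured only below the array median and entered no count. PDE8B, which encodes the relative of the PDE8A enzyme found in thyroid and adrenal, was among them in both lines. In LM8 its probe sets read 2.75 and 3.54 in the control and knock-down array, and 3.53 and 3.87. In A375M they read 3.76 and 4.39, 2.65 and 2.81, and 2.48 in both. Pde6b and Pde6c, subunit genes of the rod and cone enzymes, differed by 0.63 and 0.54 in LM8, and PDE9A, a cyclic GMP-specific enzyme gene, by 0.50 in A375M, all at such levels. PDE1C, not among the 10 genes, was well above the median in A375M, where its brightest probe set read 8.58 in both arrays and the next 3 by level differed by -0.16, -0.17 and -0.25.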
